A study of Rosa rugosa with 4 samples.

Results

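The lipoxygenase and jasmonate pathway of *Rosa rugosa* was represented by 47 assembled contigs among the 65535 in the deposited table of petal and leaf RNA-seq. A contig was counted when its first database hit belonged to a rosaceous plant (strawberry, rose, apple, pear or *Prunus*) and the hit's description named a lipoxygenase, an allene oxide enzyme, hydroperoxide lyase, 12-oxophytodienoate, OPC-8, acyl-coenzyme A oxidase, jasmonate, a TIFY protein or the receptor coronatine-insensitive. In all 47 the first hit was to woodland strawberry (*Fragaria*), and the 47 contigs hit 27 strawberry genes, 12 of them by more than 1 contig. By the words of the hit they were 14 contigs of 13-lipoxygenase, 6 of 9-lipoxygenase, 2 of allene oxide synthase, 1 of allene oxide cyclase, 7 of 12-oxophytodienoate reductase, 5 of acyl-CoA oxidase, 3 of jasmonate methyltransferase, 2 of a jasmonate-induced protein and 7 of TIFY proteins. No contig of the table, plant or not, carried the words hydroperoxide lyase, OPC-8 or coronatine-insensitive.

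Petals (libraries petal 1 and petal 2) were compared with leaves (libraries leaf 1 and leaf 2) of *R. rugosa* plants kept in a greenhouse without treatment, and total RNA was sequenced after ribosomal RNA had been removed. The labels give no cultivar, plant age or flower stage, and do not state if the 2 libraries a tissue came from different plants. The p-values below therefore reach no further than these libraries. Levels are in FPKM, the fragments (sequenced pieces of cDNA) on a contig, scaled by its length and by the mapped fragments of the library.

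Jasmonates are oxidised fatty acid hormones that plants use in wound and pathogen responses and in flower maturation. 13-lipoxygenases in the chloroplast add oxygen to linolenic acid, and allene oxide synthase, allene oxide cyclase, 12-oxophytodienoate reductase and the peroxisomal acyl-CoA oxidases turn the product into jasmonic acid. 9-lipoxygenases oxidise the same kind of fatty acid at another carbon and feed other oxylipins, and TIFY proteins of the JAZ group repress jasmonate-responsive genes until the hormone has them degraded.

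In petals, contigs of 1 lipoxygenase gene held nearly all of the fragments on these 47 contigs, which was not so in leaves. The contigs analysed here are part of the assembly, so other contigs of the pathway may lie outside them. Contigs that hit 13-lipoxygenase 3-1 were abundant in both petal libraries and close to absent from both leaf libraries, while the best-covered contig of 13-lipoxygenase 2-1 had the lower values in petals, a difference that did not pass the test. The remaining enzymes, the methyltransferases and the TIFY contigs were seen through so few fragments that most of their levels in petals and leaves could not be told apart.

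The depth behind these values was small. The mapped totals, 18100000 and 22900000 fragments in petal 1 and petal 2 and 26100000 and 19900000 in leaf 1 and leaf 2, refer to the whole assembly, and the contigs of the table took 0.805 to 2.97% of them. Contigs with a plant hit (15214 of the 65535) took 0.969 and 0.594% of the mapped fragments in petal 1 and petal 2, and 0.682 and 0.624% in leaf 1 and leaf 2. Petal 2 stood apart through other organisms, since contigs with a grey mould hit (*Botrytis* and close relatives) took 0.827% of its mapped fragments and at most 0.000714% in any of the other libraries, and chelicerate hits took 0.395%. Aphid hits took 0.0793 and 0.103% in the petal libraries, against 0.00256 and 0.00315% in the leaf libraries, and hits to the leaf pathogen *Marssonina* took 0.000153 and 0.00485% in petals, against 0.0357 and 0.0192% in leaves. The part that these organisms had in any pathway value was not tested. Petal markers were matched by the words of the hit, which also caught several AGAMOUS-like and APETALA 2-like contigs. Of 23 contigs of petal markers, 13 had a value, and 4 of these lay wholly higher in petals and 1 wholly higher in leaves. Their summed level of 381 and 68.7 FPKM in petals, against 10.7 and 116 FPKM in leaves, was led in petals by *NUDX1*, and the 21 contigs without it summed to 23.2 and 32.3 FPKM in petals, against 9.91 and 116 FPKM in leaves. In leaf 2, 75.2 FPKM of the sum came from an AGL80 contig with 3 fragments and 27.2 FPKM from a dihydroflavonol 4-reductase contig with 2 fragments. *NUDX1* (TR136248|c0_g1_i1), which makes a precursor of rose scent, stood at 347 and 35.5 FPKM in petals, against 0.74 and 0.09 FPKM in leaves. Of 16 contigs of photosynthesis genes, 12 had a value, of which 1 lay wholly higher in petals and 4 wholly higher in leaves. Summed over the list the level was 125 and 56.2 FPKM in petals and 102 and 95.8 FPKM in leaves, so that neither list as a whole separated the tissues in the contigs at hand.

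Most pathway contigs were short pieces. Their lengths ran between 178 and 4042 nt around a median of 274 nt, close to the median of 269 nt over all contigs with a plant hit, and 4 of the 47 were longer than 500 nt. A value above 0 in at least 1 library was found for 27 contigs, and 20 (42.6%) were at 0 in every library, against 45.8% of contigs with a plant hit. No contig of the table shorter than 197 nt had a value in any library, so the 0s of the 6 pathway contigs below that length carry no information. Of the 27 contigs with a value, 16 had it in 1 library only, 20 rested on 10 fragments or fewer over the 4 libraries, and 5 had at least 20 fragments. The plot of length against depth sets the pair of long 13-lipoxygenase 3-1 contigs apart from all others.

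**Figure D1:**
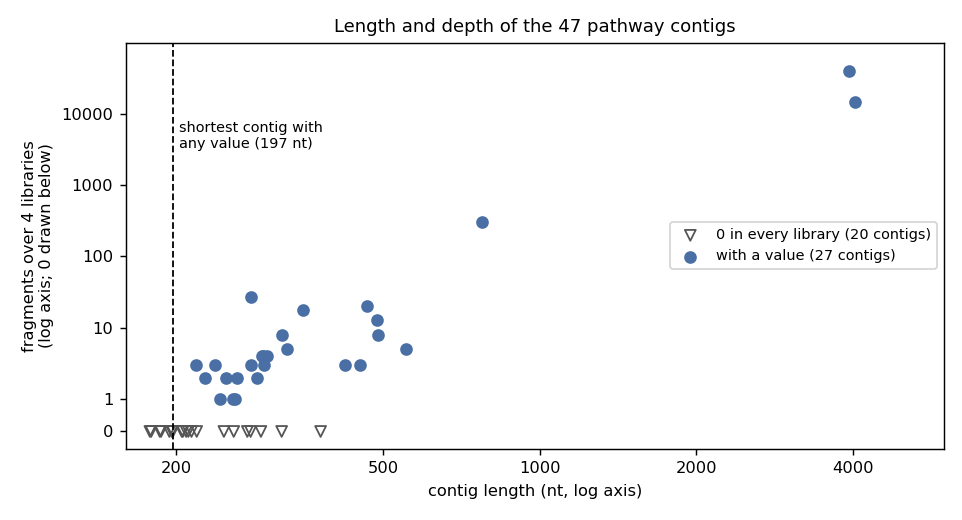
Length of the 47 pathway contigs in nt (x axis, log) against their fragments summed over the 4 libraries (y axis, log). Filled circles are the 27 contigs with a value, open triangles the 20 at 0, and the dashed line marks 197 nt. The 2 contigs at the far right hold 39878 (3931 nt) and 14538 (4042 nt) fragments, and the next has 305.

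The 13-lipoxygenase 3-1 contigs hit the strawberry gene LOC101302634. The best covered of them, TR14987|c0_g2_i1 (3931 nt), stood at 537 and 52.8 FPKM in petal 1 and petal 2, against 0 and 0.30 FPKM in leaf 1 and leaf 2. Its neighbour in the same assembly component, TR14987|c0_g1_i1 (4042 nt), stood at 198 and 11.3 FPKM in petals, against 0.78 and 0 FPKM in leaves. On both contigs each petal library was above each leaf library, and petal 1 was well above petal 2. In whole tissue, a difference in the share of cells that express a gene and a difference in RNA per cell cannot be told apart.

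In the fit over all contigs whose mean and SD both reached 10 FPKM, TR14987|c0_g2_i1 was higher in petals by 7.22 on the scale log2(FPKM + 1), with a standard error of 1.29 (limma, adjusted p = 5.69e-06). The contig reached the filter through its petal values alone, and a minimum on the SD favours contigs that differ between libraries. The variance in this fit came wholly from the trend over the 2157 contigs tested. Its standard errors and p-values therefore do not measure the spread between libraries of any single contig, such as the gap between petal 1 and petal 2 here. It was the only one of the 4 pathway contigs tested that passed an adjusted p of 0.05, beside 24 of 2157 contigs, or 1.11%, over the whole table, and 0.649% in the direction of higher in petal. TR14987|c0_g1_i1 was higher by 5.21 with a standard error of 1.83 and did not pass (limma, adjusted p = 0.239). The call depended on the fit. With no filter on level 0 of the 27 contigs with a value passed, beside 0.00768% of all contigs, and 2 had an unadjusted p under 0.05 (limma, adjusted p = 0.427 for TR14987|c0_g2_i1). With a mean of at least 1 FPKM 0 of 22 passed, beside 0.0476% of all contigs, and 3 had an unadjusted p under 0.05. The log2 difference of TR14987|c0_g2_i1 was 7.03 without leaf 1, 7.41 without leaf 2, 5.56 without petal 1 and 8.88 without petal 2. Each of these fits leaves a lone library in a tissue, so they cannot show if the call holds. With the library number as a block both contigs of the component passed, beside 2.36% of all contigs (limma, adjusted p = 0.0231 for TR14987|c0_g1_i1), although the labels do not pair the libraries.

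As both contigs hit the same strawberry gene, their fragments were also added. The pair held 48934 and 5385 fragments in petal 1 and petal 2, against 76 and 22 in leaf 1 and leaf 2. Its summed level was 736 and 64.1 FPKM in petals, compared with 0.78 and 0.30 FPKM in leaves. The lower petal library was 82.1-fold above the higher leaf library. The petal mean was 740-fold the leaf mean, a ratio that was 119 without petal 1, 1362 without petal 2, 1333 without leaf 1 and 513 without leaf 2. As the tissues did not overlap, leaving out a library could not change the direction. The size moved with the gap between the petal libraries, which was 11.5-fold.

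Measured against each library's fragments on the plant-hit contigs analysed here, the pair took 27.9% in petal 1 (95% Wilson interval 27.7 to 28.1) and 3.95% in petal 2 (3.85 to 4.05). In leaf 1 it took 0.0428% (0.0342 to 0.0535) and in leaf 2 0.0177% (0.0117 to 0.0268). These intervals cover counting error only. The plant-hit contigs took 0.969 and 0.594% of the mapped fragments in petal 1 and petal 2, and 0.682 and 0.624% in leaf 1 and leaf 2. The shares are therefore not shares of a whole library. In petal 1 the contigs TR14987|c0_g2_i1 and TR14987|c0_g1_i1 ranked 1 and 2 by fragments among all 65535 contigs, and in petal 2 they ranked 23 and 98. By FPKM, which takes their length into account, they ranked 8 and 29 in petal 1, and 596 and 3943 in petal 2. Of the fragments on the 47 pathway contigs, the pair made up 99.9 and 98.7% in petal 1 and petal 2, against 36.8 and 10.1% in leaf 1 and leaf 2. In summed FPKM, where short contigs weigh more, the pathway stood at 840 and 117 in petals, against 110 and 76.3 in leaves, and at 105 and 52.7 in petals, against 109 and 76.0 in leaves, without the pair.

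**Figure D2:**
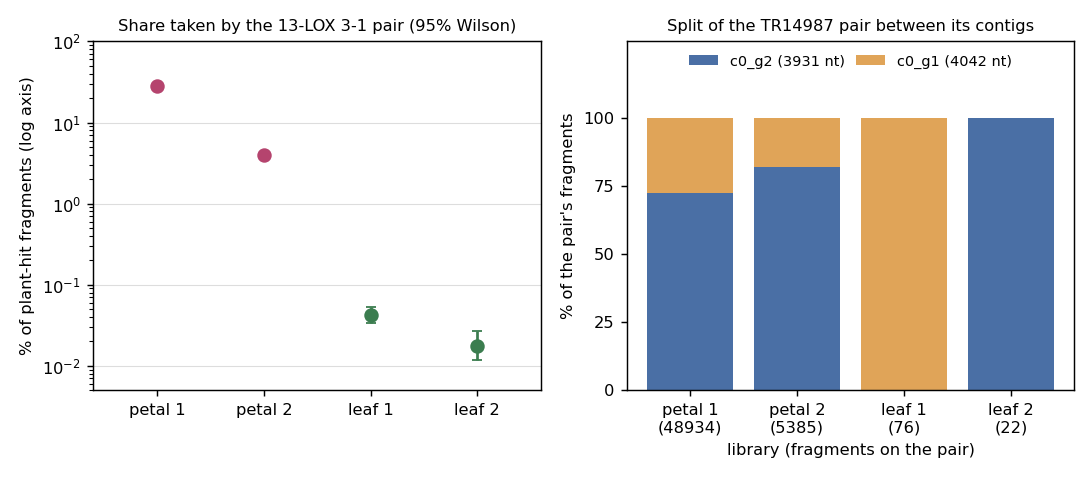
Left, share that the TR14987 pair took of the fragments on the plant-hit contigs analysed here, by library (y axis in %, log, points with 95% Wilson intervals). It was 27.9 and 3.95% in petals and under 0.05% in both leaf libraries. Right, % of the pair's fragments on each contig, with the number of fragments under each bar. Both petal libraries hold both contigs and each leaf library holds 1.

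The split of fragments between the pair also differed among libraries. TR14987|c0_g2_i1 took 72.4% of the pair's fragments in petal 1 and 82.0% in petal 2, against none of 76 in leaf 1 (95% Wilson interval 0 to 4.81%) and all of 22 in leaf 2 (85.1 to 100%). Each leaf library thus placed its few fragments on a different contig of the pair. Whether the contigs are alleles, copies or assembly variants of 1 gene was not tested. Fragments that match both contigs can be assigned to either. The intervals take the assignment as known and do not cover this, while the summed value does not depend on it.

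Petal 1 exceeded petal 2 by 10.2-fold on TR14987|c0_g2_i1 and by 17.6-fold on TR14987|c0_g1_i1. Among 114 contigs with a plant hit, a value in both petal libraries and at least 100 petal fragments, the median of this ratio was 0.976 and the middle of the distribution ran between quartiles of 0.514 and 1.88. Only 4 and 3 of the 114, which include the pair, had a higher ratio than TR14987|c0_g2_i1 and TR14987|c0_g1_i1. The 4 above TR14987|c0_g2_i1 include TR14987|c0_g1_i1. Counted per plant-hit fragment outside the pair, which leaves the fragments of other organisms aside, the pair was still 9.41-fold higher in petal 1. *NUDX1*, with the values given above, differed in the same direction between the petal libraries.

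**Figure D3:**
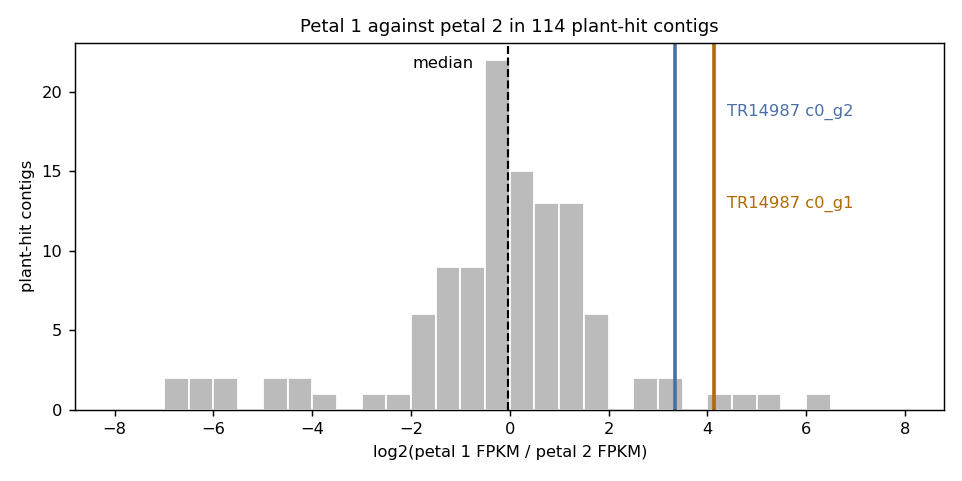
Distribution of log2(petal 1 FPKM / petal 2 FPKM) over 114 plant-hit contigs with at least 100 petal fragments (y axis, number of contigs). The dashed line is the median (ratio 0.976), and the coloured lines are the contigs of the 13-lipoxygenase 3-1 pair at ratios of 10.2 and 17.6, toward the right end of the distribution.

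A further short contig of the same gene, TR114124|c0_g1_i1 (278 nt), stood at 78.1 FPKM in petal 1 and at 0 in petal 2 and in both leaf libraries. It held 27 fragments, all from petal 1, and its mean was 7.79-fold higher in petals when leaves were set to 3 fragments over the group. It did not pass the test (limma, log2 difference 3.15, adjusted p = 0.515). The last contig of this name, which hit the separate strawberry gene LOC101302672, was at 0 in every library.

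13-lipoxygenase 2-1, the other plastid enzyme of this class, was hit by 10 contigs from 4 strawberry genes, and 7 of them had a value. TR128656|c0_g1_i1 (774 nt, LOC101301283) was the best covered and is described here after its values were seen. It stood at 0.33 and 2.63 FPKM in petal 1 and petal 2, against 8.83 and 18.2 FPKM in leaf 1 and leaf 2, from 3 and 29 fragments in petals and 106 and 166 in leaves. The libraries of the tissues did not overlap, and the lower leaf library was 3.36-fold above the higher petal library. The leaf mean was 9.15-fold the petal mean, 5.15-fold without petal 1 and 41.0-fold without petal 2. The contig lay below the filter on level, and in the fit with no filter it did not pass (limma, log2 difference -2.65, adjusted p = 0.427).

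TR136204|c0_g1_i1 (218 nt), which did pass the filter, shows what a high FPKM can rest on here. It stood at 0 in both petal libraries, against 36.1 and 21.5 FPKM in leaf 1 and leaf 2, from 2 and 1 fragments (limma, log2 difference -4.85, adjusted p = 0.515). TR145041|c0_g1_i1 (350 nt, LOC101311411), also singled out after its values were seen, went the other way from the best-covered 2-1 contig. It stood at 6.46 and 6.52 FPKM in petals, from 8 and 10 fragments, and at 0 in both leaf libraries. With leaves set to 3 fragments over the group, its mean was 4.90-fold higher in petals. The 6 contigs that hit LOC101301208, another gene of this name, held 10 fragments in all over the 4 libraries and showed no order between the tissues.

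Counted per 1000000 mapped fragments, which does not weight short contigs more, the 4 contigs of 13-lipoxygenase 3-1 had 2706 and 235 in petal 1 and petal 2, against 2.91 and 1.08 in leaf 1 and leaf 2. The 10 contigs of 13-lipoxygenase 2-1 had 0.718 and 1.90 in petals, against 4.28 and 8.47 in leaves, so that the leaf mean was 4.87-fold the petal mean. The 33 pathway contigs outside the 13-lipoxygenases had 0.665 and 1.22 in petals, against 0.730 and 1.41 in leaves. The tissues overlapped for these 33. The sum over 13-lipoxygenase 2-1 was carried by TR128656|c0_g1_i1, with 305 of its 336 fragments. Without that contig, a split made after the values were seen, the other 9 had 0.556 and 0.614 in petals, against 0.192 and 0.101 in leaves, from 10 and 14 fragments in petals and 5 and 2 in leaves, so that the direction turned.

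**Figure D4:**
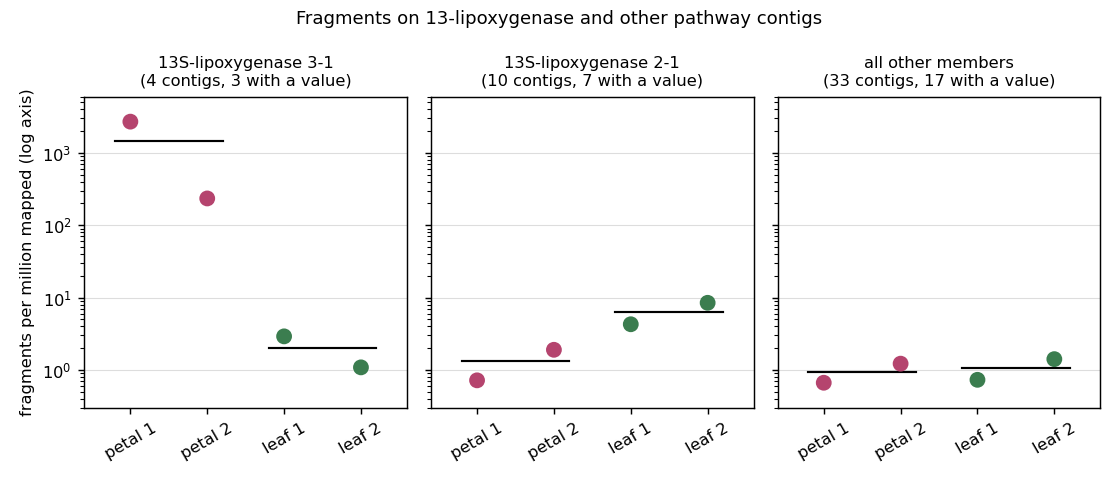
Fragments per 1000000 mapped (y axis, log) on contigs of 13-lipoxygenase 3-1, of 13-lipoxygenase 2-1 and of all other pathway members, by library, with the mean of each tissue as a black line. The first panel runs between 1.08 and 2706, the second is higher in leaves through TR128656|c0_g1_i1, and in the third the tissues overlap between 0.665 and 1.41.

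The 9-lipoxygenases were close to the limit of detection. TR121455|c0_g1_i1 stood at 8.81 FPKM in leaf 1 from 2 fragments, TR108465|c0_g1_i1 stood at 1.21 FPKM in petal 1 from 3 fragments, and both were at 0 in the other libraries. The other 4 contigs of this role, TR12669|c0_g1_i1 among them, were at 0 throughout. A difference between petals and leaves was not detectable at this depth.

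The enzymes that follow were also seen through few fragments. For allene oxide synthase, which commits the lipoxygenase product to jasmonate, TR120902|c0_g1_i1 (554 nt) was at 0 in both petal libraries, against 0.79 FPKM in leaf 1 (5 fragments) and 0 in leaf 2, and TR105163|c0_g1_i1 (379 nt) was at 0 in every library. The single allene oxide cyclase contig, TR106546|c0_g1_i1, was at 0 in every library with a length of 214 nt. A count of 0 allows up to 3 fragments in a library. In petal 1, where the 13-lipoxygenase 3-1 pair held 48934 fragments, the contigs of these enzymes held none. They are short pieces of 214 to 554 nt, against 3931 and 4042 nt for the pair. Other contigs of these enzymes may lie in the part of the assembly not analysed here, so their absence from petals is not shown.

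12-oxophytodienoate reductase was hit by 7 contigs from 5 strawberry genes, of which 5 had a value and together 16 fragments. The hits were to reductases named 1-like, 3-like and 11, and which of them act in jasmonate synthesis was not tested. Summed over the role the level was 5.95 and 24.9 FPKM in petals and 8.28 and 15.5 FPKM in leaves, and the tissues overlapped. TR135528|c0_g1_i1 had 11.6 FPKM in petal 2, against 15.5 FPKM in leaf 2, each from 1 fragment. TR133697|c0_g1_i1 had a value in leaf 1 alone (8.28 FPKM, 4 fragments) and TR117938|c0_g1_i1 in petal 2 alone (7.25 FPKM, 3 fragments). Of the acyl-CoA oxidases, which shorten the carbon chain, TR132411|c0_g1_i1 stood at 4.61 FPKM in petal 2 from 5 fragments, TR11740|c0_g1_i1 at 12.6 FPKM in leaf 1 from 2 fragments, and TR101042|c0_g1_i1 was at 0 throughout.

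Jasmonate methyltransferase makes the volatile methyl jasmonate. TR127115|c0_g1_i1 (488 nt) stood at 0.54 and 1.29 FPKM in petals, from 2 and 6 fragments, and at 0 in both leaf libraries. TR131158|c0_g1_i1 (487 nt) stood at 0 and 1.08 FPKM in petals, against 0 and 2.34 FPKM in leaves, and TR132329|c0_g1_i1 was at 0 throughout. The summed fragments of the role were 2 and 11 in petals, against 0 and 8 in leaves, so that the tissues overlapped.

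The contigs named for a response to jasmonate had a value in leaves alone. TR12617|c0_g2_i1 (465 nt), which hit a 23 kDa jasmonate-induced protein, was at 0 in both petal libraries, against 1.25 and 5.03 FPKM in leaf 1 and leaf 2, from 5 and 15 fragments. With petals set to 3 fragments over the group, its mean was 7.73-fold higher in leaves. Its neighbour TR12617|c0_g1_i1 (452 nt) had 1.10 FPKM in leaf 2, from 3 fragments, and 0 elsewhere. Neither passed in the fit with no filter (limma, adjusted p = 0.427 for each).

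Of the 7 TIFY contigs, 3 had a value. TR18313|c0_g1_i1, which hit TIFY 9, stood at 5.08 and 4.15 FPKM in petals, from 4 fragments in each library, against 0 in both leaf libraries. With leaves set to 3 fragments over the group, its mean was 2.12-fold higher in petals. TR18856|c0_g1_i1 (TIFY 6B) stood at 9.39 FPKM in leaf 2 and TR20249|c0_g1_i1 (TIFY 4B) at 5.04 FPKM in leaf 1, each from 1 fragment. No other TIFY contig had a value.

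**Figure D5:**
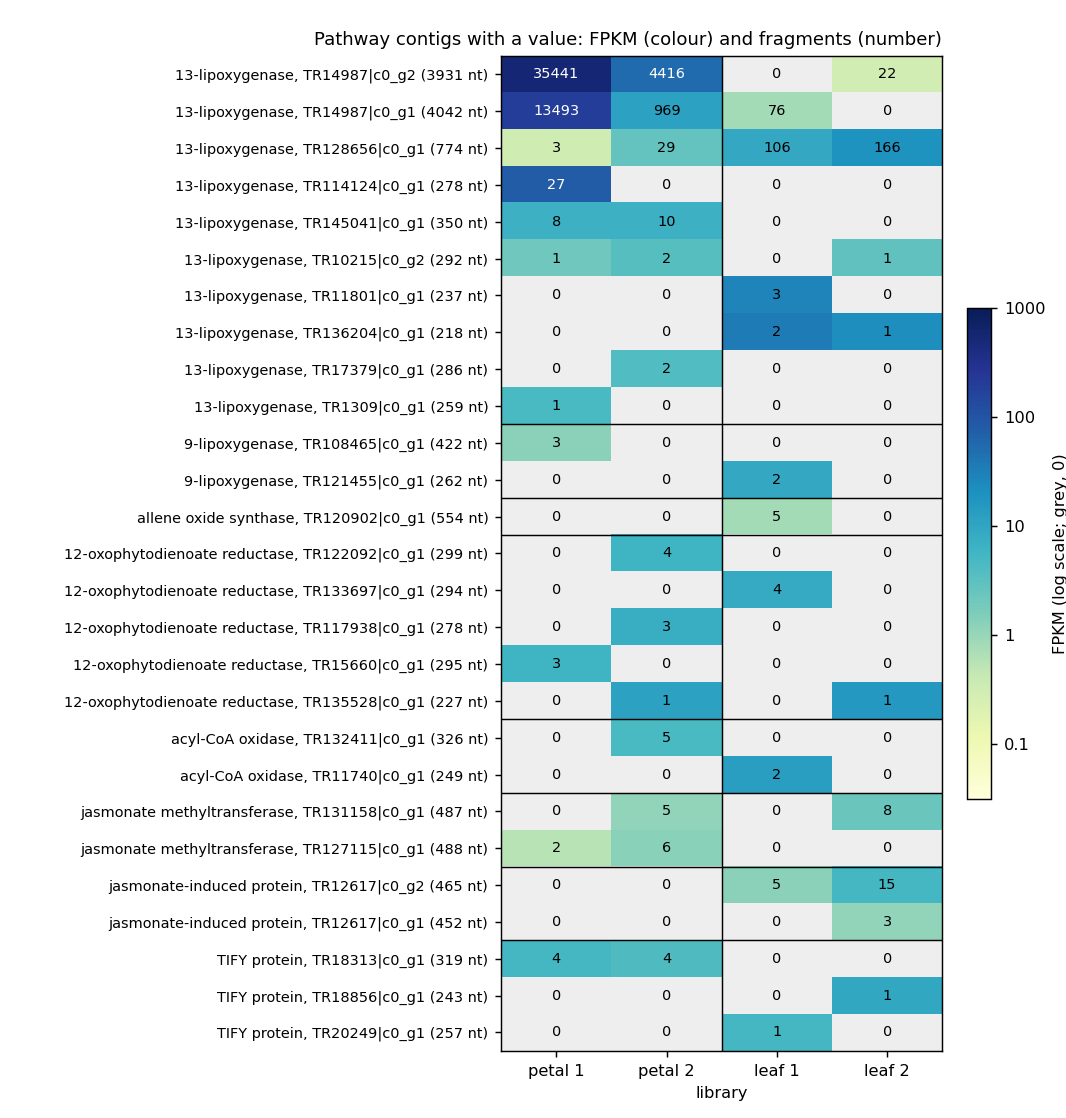
The 27 pathway contigs with a value (rows, by role) in the 4 libraries (columns, petals left of leaves). Colour gives FPKM on a log scale with grey for 0, and the number in each cell is the fragments. The counts of 969 to 35441 in the petal columns belong to the TR14987 pair, and outside the pair and TR128656|c0_g1_i1 no cell holds more than 27.

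Over the 27 contigs with a value, 5 had both petal values above both leaf values, 3 the reverse, and 19 overlapped. Among all contigs with a plant hit and a value, 12.2% lay wholly higher in petals and 10.5% wholly higher in leaves, so that the 18.5 and 11.1% of the pathway contigs stood near the background. With at least 20 fragments required, 2 of 5 pathway contigs lay wholly higher in petals and 2 wholly higher in leaves, beside 27.0 and 21.6% of plant-hit contigs. The 5 contigs were too few to set such shares apart from the background. The median log2 difference of the 27 contigs was 0.57, against 0.12 over the 8248 plant-hit contigs with a value and 0.77 over all 39061 contigs with a value. For 1 contig, an exact two-sided permutation test over 2 libraries a tissue cannot go below p = 0.333.

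Genes that stand beside the core pathway were read from a list of 73 plant-hit contigs. It held lipases that release the fatty acid, desaturases, β-oxidation enzymes, ABC transporters of the D family, co-repressors and transcription factors. It also held enzymes that turn over the active hormone. The largest class was alcohol dehydrogenase with 21 contigs, of which 8 hit cinnamyl alcohol dehydrogenase. A value was found for 27 of the 73, and 6 had at least 20 fragments. Of the 27, 2 lay wholly higher in petals and 3 wholly higher in leaves. Over all plant-hit contigs with a value these shares were 12.2 and 10.5%, so the list did not stand out from the background. Of the list 1 contig passed the filter, a chloroplast ABC transporter of the D family (TR16652|c0_g7_i1) with 46.4 FPKM in leaf 2 from 2 fragments and 0 elsewhere, and it did not pass the test (limma, adjusted p = 0.515).

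Of 3 cytochrome P450 contigs of the CYP94 family, 2 had a value, and their levels ran in opposite directions. TR103219|c0_g1_i1, which hit CYP94A1 (in vetch a fatty acid ω-hydroxylase), stood at 4.88 and 18.2 FPKM in petals, from 5 and 23 fragments, against 0 in both leaf libraries. TR114758|c0_g1_i1, which hit CYP94C1 (in *Arabidopsis* an enzyme that oxidises the active jasmonate conjugate), stood at 0.59 and 0.33 FPKM in petals, against 1.34 and 0.89 FPKM in leaves, from 108 fragments in all. Neither pair of tissues overlapped, and neither contig passed in the fit with no filter (limma, adjusted p = 0.427 and 0.711). Of 10 contigs that hit ILR1-like hydrolases, which in *Arabidopsis* cleave amino acid conjugates of auxin and jasmonate, 3 had a value and none lay wholly higher in 1 tissue, as on TR105264|c0_g1_i1 with 5.21 and 2.43 FPKM in petals against 2.63 and 0.51 FPKM in leaves. CYP94C1, the ILR1-like contig and the lipase below were picked after their values were seen.

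The lipase DAD1, which in *Arabidopsis* stamens releases the fatty acid for jasmonate, was hit by TR118263|c0_g1_i1. It stood at 0 and 2.27 FPKM in petals, with all 21 fragments from petal 2, and at 0 in both leaf libraries. The other contigs named by level were a cinnamyl alcohol dehydrogenase (TR142|c0_g1_i1), an enzyme of lignin synthesis that the words alcohol dehydrogenase also caught, with 4.60 and 6.71 FPKM in petals against 16.9 and 22.3 FPKM in leaves. An alcohol dehydrogenase class-3 (TR108855|c0_g1_i1) stood at 23.6 FPKM in leaf 2 alone, and a peroxisomal 3-ketoacyl-CoA thiolase (TR18046|c0_g1_i1) at 3.19 and 0 FPKM in petals against 13.01 and 0 FPKM in leaves.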

How the data were processed

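Per the study's methods, the authors made 1 Trinity assembly from all libraries, searched it against NCBI nt/nr, and estimated levels with RSEM on bowtie alignments (versions not given in the sources used here). They deposited FPKM per contig, not counts, so limma with a variance trend (version 3.58.1, R 4.3.3) was run on log2(FPKM + 1) in place of the authors' edgeR. Mean and SD over the 4 libraries both had to reach 10 FPKM to be tested. The authors state this filter for their clustering, and it was not stated for their test. P-values were adjusted by Benjamini-Hochberg over all contigs tested. Fold changes on this scale understate those of low contigs.

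Fragments were recovered from the FPKM that 1 fragment gives at each contig length. Of low values, 98.7 to 98.9% came out whole within 0.1 (contigs under 500 nt, up to 10 fragments). The value of 1 fragment was itself fitted to such low values, so this share is not an independent check. It does not cover the long contigs of the TR14987 pair. Folds against a group at 0 used 3 fragments over the group and took the mean of the other group as measured, so they are not lower bounds. The fit and the recovery were also run on simulated data. In the simulation for the fit, the libraries of a tissue shared the same mean level on each contig. It therefore does not show how the fit behaves where the petal libraries differ as on the TR14987 pair.

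The table holds 65535 contigs, which is part of the assembly. The rest was not analysed here. Gene names are those of the hits. The named contigs were those tested, those called, and the 3 with the highest mean in each role, and in the wider list those called and the 5 with the highest mean. The members and lists were chosen with earlier results of these data known. Alternatives were other pseudocounts (0.1 and 10 FPKM), filters, scalings and variance priors, a replicate block, limma-voom on recovered fragments and leaving out each library. Python 3.11.15 with pandas 2.3.3, scipy 1.17.1 and matplotlib 3.10.9 was used.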

Additional observations from a re-analysis of the deposited data

Results flagged for a closer look

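Contigs of acyl-CoA oxidase that hit animals were left out of the pathway and showed a signal in petals alone. The 5 contigs that hit the pea aphid held 21 fragments in the petal libraries (6 in petal 1 and 15 in petal 2) and 0 in the leaf libraries. The 2 contigs that hit a horseshoe crab, a chelicerate, held 9 fragments in petal 2 and 0 in every other library. The 5 plant contigs of this role held 0 and 5 in petal 1 and petal 2 and 2 and 0 in leaf 1 and leaf 2.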

How the results depend on the processing

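The direction of all 21 named contigs with a value was kept in each of the 139 values recomputed with all 4 libraries. That was largely fixed in advance. Settings that change only the filter, the prior or the block leave a log2 difference as it is. A contig at 0 in both libraries of a tissue cannot change sign with the pseudocount. The calls were not kept. Over all contigs, 24 passed as reported, 9 with a mean of at least 1 FPKM, 3 with no filter, 9 after quantile normalization, 51 with a replicate block, and 0 with no trend in the prior, with limma-voom on recovered fragments or with at least 20 fragments (14, 177 and 299 at an unadjusted p under 0.05). Among plant hits with at least 20 fragments, a setting chosen after seeing the data like the one before it, 1 passed. Of the pathway contigs 1 passed as reported and 0 under those settings, except for 2 with the block. Unadjusted p under 0.05 was then reached by 3 of 22 pathway contigs at 1 FPKM, 2 of 27 with no filter, 1 of 4 after quantile normalization, 1 of 4 with no trend, 1 of 5 with voom, and 3 and 4 of 5 with at least 20 fragments. TR14987|c0_g2_i1 had limma adjusted p of 0.268 (1 FPKM), 0.427 (no filter), 0.543 (quantile, log2 difference 5.45), 0.407 (no trend, log2 difference 7.22), 0.589 (voom, log2 difference 12.8) and 0.468 and 0.221 (at least 20 fragments). Leaving out 1 library gave 305 to 810 calls over all contigs with the lone library assumed to vary like the other tissue, always 1 pathway contig, and a log2 difference of 5.56 to 8.88 for TR14987|c0_g2_i1 and 3.20 to 7.22 for TR14987|c0_g1_i1. That 1 contig was TR14987|c0_g2_i1 without petal 1, TR114124|c0_g1_i1 without petal 2, and TR136204|c0_g1_i1 without leaf 1 or leaf 2. With the replicate block, TR14987|c0_g1_i1 (5.21) also passed (limma, adjusted p = 0.0231). The labels do not pair the libraries, and deviations of same-numbered libraries correlated at 0.0406 over the 2157 tested contigs, 0.188 over 506 of these with a plant hit and 0.497 over 1173 plant-hit contigs with at least 20 fragments, so that with 2 pairs the pairing was not settled. Of the 5 contigs higher in both petal libraries, 2 remained at 20 fragments or more. Of the 27 pathway contigs with a value, 20 had 10 fragments or fewer.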
